A study of Mus musculus with 6 samples.

Results

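Fos, Fosb, Jun, Junb, Jund, Egr1, Atf3, Ier2, Dusp1 and Zfp36 are immediate early genes of the AP-1 and Egr groups and of their close circle. These 10 genes were chosen by symbol out of 56884 genes counted in each library, and each symbol matched 1 gene identifier. They were picked with earlier results of these libraries known, namely lower levels in the library labelled 4-OHT than in the library labelled EtOH at day 4 but not at day 6, so that pattern is given as a description.

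The reads came from Lgr5-GFP+ cells, the cells that report the stem cell gene Lgr5, sorted from cultured organoids of the mouse small intestinal epithelium. Every organoid, EtOH controls included, carried Villin-CreERT2, the Lgr5-EGFP-IRES-CreERT2 allele and Ythdf2fl/fl, a gene for an m6A reader flanked by loxP sites. The villin promoter drives this Cre in the whole intestinal epithelium, and the Lgr5 allele in Lgr5-expressing cells, with 4-hydroxytamoxifen (4-OHT) as the activating drug. At day 4 after the 0.5 µM treatment there was 1 library labelled EtOH (the vehicle) and 1 labelled 4-OHT, and at day 6 there were 2 of each. The labels do not say whether the libraries of a group came from separate cultures or mice, so a p-value measures only the spread between these samples, which may be technical.

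Library totals ran from 14345379 to 21461835 counts in genes. Ythdf2, the floxed gene, was checked first: it stood at 76.1 CPM (EtOH) and 166 CPM (4-OHT) at day 4, 82.7 and 76.1 CPM in the day 6 EtOH libraries, and 208 and 205 CPM in those labelled 4-OHT. CPM are gene counts relative to the library total, scaled between libraries by edgeR's TMM factors. A gene count does not show the floxed exons, and the level is opposite to a loss of transcript, so "labelled 4-OHT" is used throughout and every direction rests on those labels. Lgr5 was present in every library, at 209.6 to 368 CPM. Unassigned reads were 6.19% and 6.70% of all entries at day 4 against 2.63% to 3.76% at day 6. Unmapped reads were 10.3% (EtOH) and 8.32% (4-OHT) at day 4 against 5.01% to 6.74% at day 6. Genes with any count numbered 26521 (EtOH) and 24195 (4-OHT) at day 4 against 19522 to 20622 at day 6. The day 4 EtOH library was thus the highest in both, and the part of this in gene levels was not tested. The names of the day 4 and day 6 libraries belong to different number series, so that day and library series cannot be told apart.

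Immediate early genes are switched on within minutes of a stimulus without new protein synthesis, through the MAP kinases and factors such as SRF and CREB that already sit in the nucleus. Fos and Jun proteins pair through leucine zippers into AP-1, which binds DNA and switches on later genes, Egr1 is a zinc finger factor of the same wave, and Dusp1 and Zfp36 close it by removing phosphate from MAP kinases and by promoting decay of AU-rich messages. In the intestine this programme follows growth factors and injury, and it is widely known as a trace of taking tissue apart into single cells, since dissociation and sorting can induce it in the cells being measured. The labels used here give no duration or temperature for the dissociation or the sort.

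The sequences next to the start sites of these genes are shown because most members were highest in the same library, as described below. RefSeq windows of 300 bases (250 before the start site and 50 from it on, build GRCm38.p6) were matched by symbol for 8 of the 10 genes, while Egr1 and Ier2 are named only. TGACG, the core of the CREB and ATF site, was found on either strand in 5 of the 8 windows (Fos, Fosb, Junb, Atf3 and Dusp1), against 20.8% of 32851 windows of all genes. Below are the 200 bases before the start site of 5 members, 5′ to 3′ on the gene's strand, with capitals for TGACG on either strand and, in Zfp36, for the CArG box bound by SRF.
Fos, chr12:85473690-85473889, plus strand: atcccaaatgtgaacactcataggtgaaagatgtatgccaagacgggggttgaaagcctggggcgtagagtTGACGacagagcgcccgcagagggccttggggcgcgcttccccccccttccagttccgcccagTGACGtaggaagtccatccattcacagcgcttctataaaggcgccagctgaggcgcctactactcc
Fosb, chr7:19310046-19310245, minus strand: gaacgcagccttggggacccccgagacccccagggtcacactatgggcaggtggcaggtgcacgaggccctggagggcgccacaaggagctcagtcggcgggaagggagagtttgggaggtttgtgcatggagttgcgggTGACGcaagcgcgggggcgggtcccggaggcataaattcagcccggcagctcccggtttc
Atf3, chr1:191183334-191183533, minus strand: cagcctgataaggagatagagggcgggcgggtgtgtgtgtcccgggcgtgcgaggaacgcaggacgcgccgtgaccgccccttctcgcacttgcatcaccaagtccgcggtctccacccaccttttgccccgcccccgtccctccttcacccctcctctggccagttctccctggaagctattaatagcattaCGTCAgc
Dusp1, chr17:26508473-26508672, minus strand: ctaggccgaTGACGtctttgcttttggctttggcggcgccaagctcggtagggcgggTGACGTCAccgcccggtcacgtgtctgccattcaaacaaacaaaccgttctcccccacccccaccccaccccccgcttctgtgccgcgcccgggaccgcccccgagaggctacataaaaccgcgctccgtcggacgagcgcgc
Zfp36, chr7:28379229-28379428, minus strand: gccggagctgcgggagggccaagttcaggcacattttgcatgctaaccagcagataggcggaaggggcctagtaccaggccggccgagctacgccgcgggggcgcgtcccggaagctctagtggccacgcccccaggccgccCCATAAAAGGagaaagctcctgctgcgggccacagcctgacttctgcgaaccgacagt

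In Fos the TGACG matches begin 129 and 66 bases before the start site, in Fosb 60, in Junb 106 and in Atf3 7 bases before it. Dusp1 has matches beginning at 191, 143 and 140 bases, and the latter pair overlap in the palindrome TGACGTCA. A CArG box was found in Zfp36 alone among the 8, 58 bases before the start, against 1.63% of all windows. Boxes farther than 250 bases before a start site, and any of Egr1 and Ier2, were outside this search. TGANTCA, the classical AP-1 site, was in 0 of 8 windows and in 7.81% of all windows. This pattern does not match longer forms such as TGACATCA, which stands in the Jun window and was not searched over all windows. TATAAA was in Fos, beginning 33 bases before the start site, and in Junb, beginning at the start site itself (13.6% of all windows). GGGCGG was in 6 of 8 (35.7%) and CCGGAA in Zfp36 (14.9%), each searched on both strands. These are matches of letters in a short window, and they say nothing of which factor was bound.

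Gene structure was compared next, a property that the choice by symbol did not use. In the GENCODE M39 annotation of GRCm39, the median member spanned 3874.5 bases with 2 exons, against 19960 bases and 7 exons for the median of 20802 protein-coding genes. Spans are those of the whole gene record with all its transcripts, while exons and 3′ UTRs are those of the canonical transcript. Each member had 4 exons or fewer in that transcript. The records of Atf3 (47749 bases) and Dusp1 (56539 bases) spanned more than the median gene, which need not hold for their canonical transcripts. The 3′ UTR of the median member had 794.5 bases with 2.89 ATTTA elements per kilobase, against 1085 bases and 1.27 per kilobase, with members from 485 (Junb) to 2145 bases (Fosb). ATTTA is the core of the AU-rich element through which Zfp36 and related proteins act. It occurred in 9 of 10 members, Ier2 being the exception, and in 67.5% of all genes, and overlapping ATTTA pairs occurred in Fos and Dusp1, against 6.71% of all genes. These sites are shown with the overlapping elements in capitals, with coordinates on GRCm39.
Fos, chr12:85523875-85523904, plus strand: tgtgttttcaATTTATTTAttaagatggat
Dusp1, chr17:26725130-26725159, minus strand: gctggtccttATTTATTTAacacccccctc

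GGACT, a common form of the m6A consensus that Ythdf2 reads once methylated, was found in the 3′ UTR of 10 of 10 members and in 59.6% of all genes, at a median of 1.65 against 0.585 per kilobase. Whether any of these letters carried m6A was not measured.

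All 10 genes were well above the detection floor in all 6 libraries, the lowest count being 402 (Jund). Per kilobase of exon, the median level over the libraries was highest for Fos (163 CPM per kb) and Ier2 (125 CPM per kb). Jun (73.8), Junb (70.3) and Egr1 (62.7 CPM per kb) lay close together, and their ranges over the libraries overlapped. Zfp36 (36.1), Jund (18.6), Atf3 (18.3), Fosb (14.5) and Dusp1 (10.9 CPM per kb) followed. Added together, the 10 genes made up 2817 CPM in the day 4 EtOH library, 1588 CPM in the day 4 library labelled 4-OHT, 1591 and 1521 CPM in the day 6 EtOH libraries, and 1516 and 1574 CPM in the day 6 libraries labelled 4-OHT. The day 4 EtOH library thus stood apart from 5 libraries that were close to each other. It was the highest of the 6 libraries for 8 of the 10 members, all but Jund and Ier2, whereas it was highest for 17% of the 16031 genes tested over the 6 libraries. This library was singled out after its values were seen, and it is the only one of its group. In sorted bulk RNA, fewer expressing cells and less RNA per cell cannot be told apart.

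**Figure D1:**
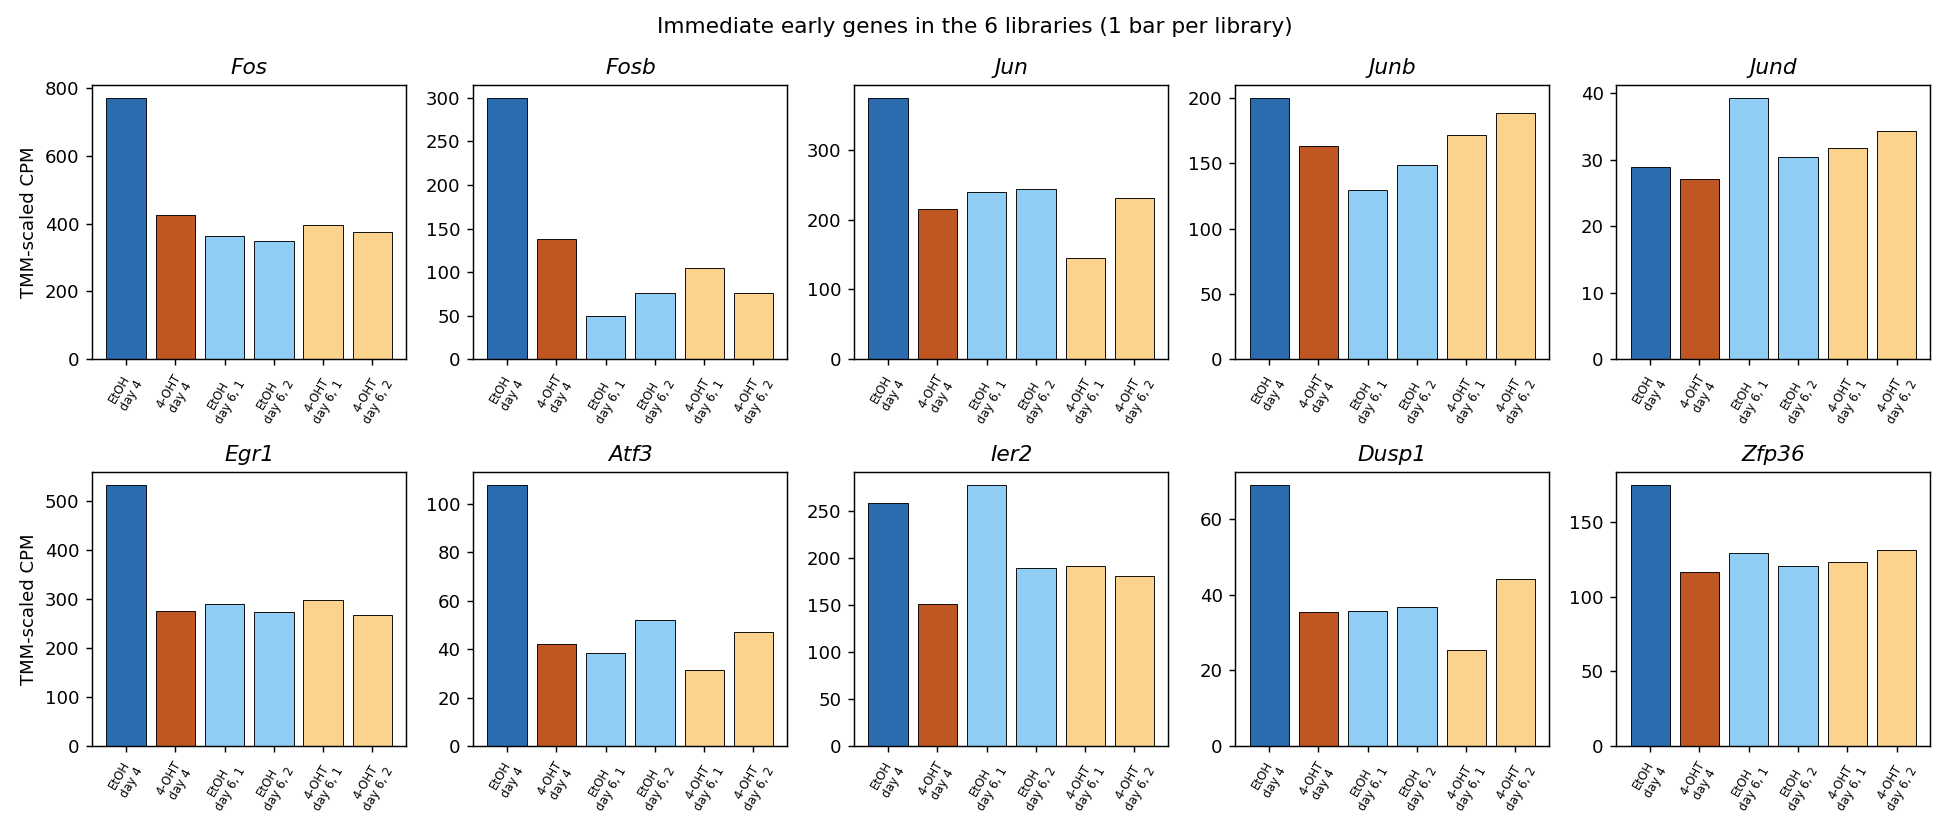
TMM-scaled CPM of each of the 10 genes, 1 bar per library, with day 4 and day 6 libraries labelled EtOH in blue and those labelled 4-OHT in orange. The day 4 EtOH bar is the highest in 8 panels, and in Jund and Ier2 the first day 6 EtOH library is higher.

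Fos, whose protein is the rapid and unstable partner in AP-1, lies on chromosome 12 at 85520658 to 85524047, plus strand, GRCm39. Its level was 770 CPM in the day 4 EtOH library and 424 CPM in the day 4 library labelled 4-OHT. At day 6 it was 362 and 349 CPM with EtOH and 394 and 374 CPM in the libraries labelled 4-OHT. The day 4 EtOH library was thus 1.82-fold above the next highest, and the remaining 5 fell within 349 to 424 CPM. The day 4 counts were 15007 (EtOH) and 6304 (4-OHT), a scaled ratio of 0.551. Its exact 95% interval, 0.535 to 0.567, is for counting error alone. Such intervals do not measure the spread between cultures, and reads without molecular identifiers are not independent molecules.

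Fosb, a second Fos family member that can drive AP-1 transcription and has a truncated form, lies on chromosome 7 at 19036621 to 19043976, minus strand. It was at 299.8 CPM (EtOH) and 138 CPM (4-OHT) at day 4, at 49.2 and 76.3 CPM in the day 6 EtOH libraries, and at 104 and 75.7 CPM in those labelled 4-OHT. Both day 4 libraries were therefore above all 4 day 6 libraries, and the day 6 groups overlapped. In proportion, this span from 49.2 to 299.8 CPM was the widest among the 10 genes. Its day 4 log2 fold change was −1.12, lower than in all but 1.12% of the 12827 genes that averaged 1 CPM or more at day 4.

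Jun, the main partner of Fos, lies on chromosome 4 at 94937271 to 94940459, minus strand. It stood at 374 CPM (EtOH) and 215 CPM (4-OHT) at day 4, 239.7 and 244 CPM in the day 6 EtOH libraries, and 145 and 231 CPM in those labelled 4-OHT. The day 6 groups did not overlap, but the libraries labelled 4-OHT differed from each other by far more (SD 60.9 CPM around a mean of 188 CPM) than those labelled EtOH (SD 2.99 CPM around 242 CPM, n = 2 each). Of the exon bases of Jun, 16.6% overlap the antisense gene Junos, and because the strand setting of the counting is not given in the sources used here, their reads cannot be told apart.

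Junb, which competes with Jun for partners and often restrains it, had 200.2 CPM (EtOH) and 163 CPM (4-OHT) at day 4. At day 6 it had 129.8 and 149 CPM with EtOH and 172 and 188 CPM in the libraries labelled 4-OHT. The day 4 EtOH library was only 1.06-fold above the next highest, and at day 6 the libraries labelled 4-OHT were the higher group, without overlap. Jund, the Jun family member that most cells express steadily, had 28.9 and 27.0 CPM at day 4, 39.3 and 30.4 CPM in the day 6 EtOH libraries and 31.8 and 34.3 CPM in those labelled 4-OHT. No group stood apart for Jund, and the day 4 libraries were its lowest. Of the exon bases of Jund, 52.6% overlap Gm11175, and of those of Junb 13.4% overlap Gm65321 or Prdx2.

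Egr1, the zinc finger factor whose induction is a standard readout of MAP kinase and SRF activity, lies on chromosome 18 at 34992876 to 34998049, plus strand. It had 532 CPM (EtOH) and 274 CPM (4-OHT) at day 4, 289 and 274 CPM in the day 6 EtOH libraries, and 297 and 267 CPM in those labelled 4-OHT. Apart from the day 4 EtOH library, all values lay within 267 to 297 CPM. In its pattern over the 6 libraries Egr1 was the member nearest to Fos, with a root mean square difference of 0.105 in centred log2 CPM. Fosb (0.485) and Jund (0.490) were the farthest from Fos.

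Atf3, a stress-induced bZIP factor that pairs with Jun proteins, had 108 CPM (EtOH) and 42.0 CPM (4-OHT) at day 4. At day 6 it had 38.3 and 51.9 CPM with EtOH and 31.5 and 47.2 CPM in the libraries labelled 4-OHT. The day 4 EtOH library was 2.08-fold above the next highest library, and the day 6 groups overlapped. Its day 4 log2 fold change of −1.36 was the lowest of the 10, and only 0.600% of genes were lower.

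Ier2, a short nuclear protein of the same wave, went another way. It had 259 CPM (EtOH) and 151 CPM (4-OHT) at day 4, 278 and 189 CPM in the day 6 EtOH libraries, and 192 and 181 CPM in those labelled 4-OHT. Its highest value was thus in EtOH replicate 1 of day 6, and the day 6 EtOH libraries differed widely from each other, with an SD of 63.0 CPM around a mean of 234 CPM (n = 2).

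Dusp1, the phosphatase that switches MAP kinases off, had 69.1 CPM (EtOH) and 35.6 CPM (4-OHT) at day 4, 35.8 and 36.7 CPM in the day 6 EtOH libraries, and 25.5 and 44.3 CPM in those labelled 4-OHT. The 2 day 6 libraries labelled 4-OHT lay on either side of the EtOH libraries. Zfp36, the AU-rich element binding protein tristetraprolin, had 175 CPM (EtOH) and 117 CPM (4-OHT) at day 4, 129 and 121 CPM in the day 6 EtOH libraries, and 123 and 131 CPM in those labelled 4-OHT. The day 6 groups of Zfp36 overlapped within 121 to 131 CPM. Small parts of their exons overlap other genes, 1.14% for Dusp1 (Ergic1) and 3.57% for Zfp36 (Gm44710).

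The day 4 pair was compared first. With 1 library per label there is no test, and the values compare 2 libraries. All 10 members were lower in the library labelled 4-OHT, with a median log2 fold change of −0.83, while 52.5% of the 12827 genes were lower by any amount and the median over these genes was −0.02. The order ran from Atf3 (−1.36) and Fosb (−1.12) over Dusp1 (−0.96), Egr1 (−0.96), Fos (−0.86), Jun (−0.80), Ier2 (−0.78) and Zfp36 (−0.58) to Junb (−0.29) and Jund (−0.10). Atf3 and Fosb were at least 2-fold lower, as were 1.45% of all genes. The counting interval lay below equality for 9 members, and for Jund it did not, the ratio being 0.935 and its exact 95% interval 0.820 to 1.06. The members had been picked for this direction, so their count is not a result in its own right.

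At day 6, with 2 libraries per label, the same genes showed no common direction. The median log2 fold change of the 10 members was −0.03, and over all 14066 genes tested it was −0.01. Of the 10 members, 0 passed at an adjusted p of 0.05 in edgeR's quasi-likelihood F test (Benjamini-Hochberg over all genes), 0 had an unadjusted p under 0.05, and DESeq2 and limma-voom each called 0. Of all genes, 2.15% passed, and 10% had an unadjusted p under 0.05. Adjusted p-values of the members ran from 0.503 (Junb) to 0.998 (Egr1). The day 6 groups did not overlap for Fos and Junb, which were higher in the libraries labelled 4-OHT, and for Jun, which was lower, and such separation was seen in 20.7% (higher) and 18% (lower) of all genes.

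The intervals of these day 6 differences limit what could have been seen. The day 4 values set beside them come from 1 library per label and have no spread of their own. The members were also picked for this pattern, so setting an interval beside a day 4 value is a description and no test. For Fos the log2 fold change was 0.10 (SE 0.17), with a 95% interval of −0.27 to 0.47, which does not reach its day 4 value of −0.86. Egr1 stood at −0.00 (SE 0.17, 95% interval −0.38 to 0.37) and Zfp36 at 0.02 (SE 0.15, −0.32 to 0.36), and both intervals also end short of the day 4 values. Fosb was at 0.51 (SE 0.24), with an interval of −0.02 to 1.04, and Junb at 0.36 (SE 0.16), with an interval of −0.00 to 0.73, both upward and neither past the threshold. The value of Fosb moved between 0.23 (without EtOH replicate 1) and 0.86 (without EtOH replicate 2). For Jun the difference was −0.37 (SE 0.22), with an interval of −0.87 to 0.12 that does include its day 4 value of −0.80, and leaving out 4-OHT replicate 1 or 2 of day 6 gave −0.08 or −0.75. Ier2 (−0.34, interval −0.80 to 0.12) likewise included its day 4 value, and it was −0.03 without EtOH replicate 1. The values of Atf3 (−0.21), Jund (−0.08) and Dusp1 (−0.06) had intervals on both sides of 0, and single libraries turned their direction. Without 4-OHT replicate 1 or 2, Atf3 was at 0.058 or −0.53 and Dusp1 at 0.28 or −0.52. Without EtOH replicate 2, Atf3 was at 0.028, and without EtOH replicate 1, Jund was at 0.12. Egr1 and Zfp36 also turned, within −0.082 to 0.071.

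**Figure D2:**
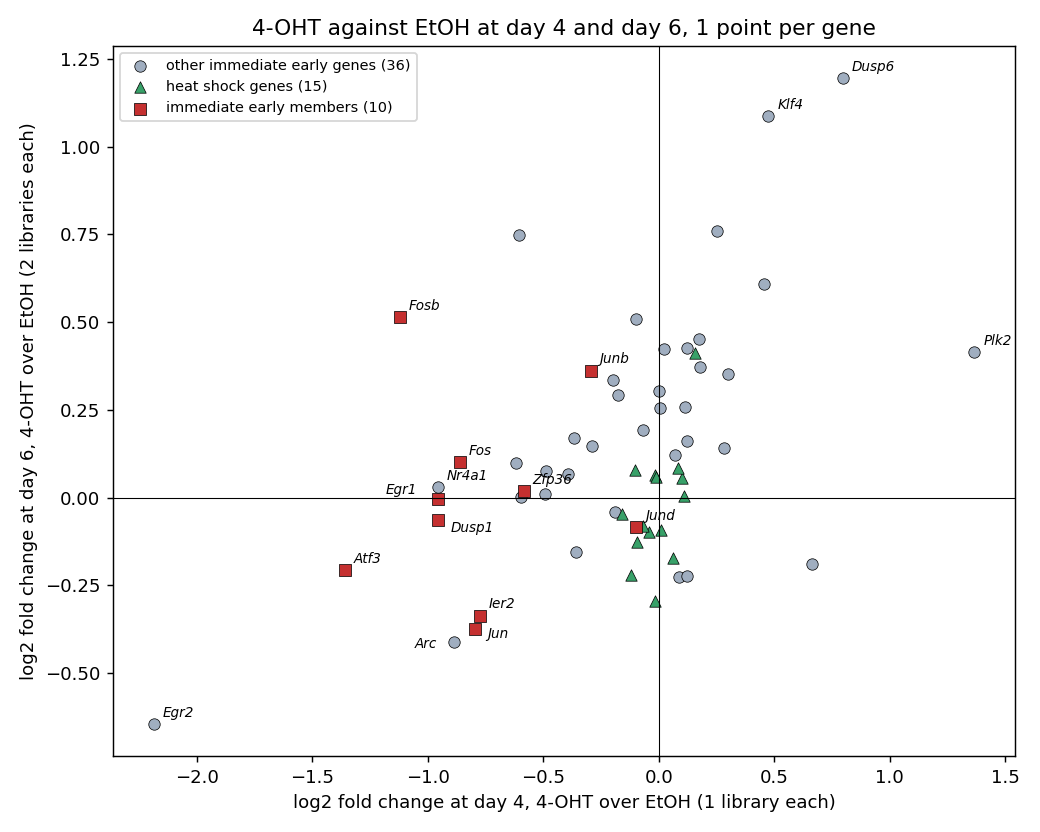
Log2 fold change of the libraries labelled 4-OHT over those labelled EtOH at day 4 (x axis, 1 library each, no test) and day 6 (y axis, 2 libraries each), 1 point per gene for the 10 members, 36 other immediate early genes and 15 heat shock genes. The members spread from −1.36 to −0.10 along the day 4 axis and lie on both sides of 0 on the day 6 axis, while the heat shock genes stay within −0.16 and 0.16 at day 4.

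Whether the day 4 and day 6 treatment differences were themselves unequal was asked in a fit of all 6 libraries in 4 groups, in which the lone day 4 libraries are assumed to vary as the day 6 replicates do. Of 16031 genes, 0 (0%) passed at an adjusted p of 0.05 in edgeR's quasi-likelihood F test (Benjamini-Hochberg), 294 (1.83%) had an unadjusted p under 0.05, and DESeq2 called 6 genes, none of them a member. Without 4-OHT replicate 1 or 2 of day 6 the count over all genes was 31 or 11, and without either EtOH replicate it was 0. The 4 members with an unadjusted p under 0.05 were Fosb (1.61, SE 0.39), Atf3 (1.13, SE 0.39), Fos (0.94, SE 0.31) and Egr1 (0.93, SE 0.31). Each had an adjusted p of 1.00 by edgeR with Benjamini-Hochberg adjustment. A difference between the days was therefore not established for any member by this fit, although 9 of the 10 members lay above 0, and the members had been chosen for that pattern. Without a filter on low counts Fosb passed, with 1.64 and an adjusted p of 0.00101 in the same edgeR test, as did 0.0378% of 31709 genes in that direction.

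The same fit also compared the days within each label. These comparisons share the day 4 libraries with the day 4 difference above, so they describe the same values from another side. With EtOH, the median member was −0.76 on the log2 scale at day 6 relative to day 4, and 9 of 10 members were lower, the exception being Jund (0.29). Over all 16031 genes the median was 0.03. Fosb fell by 2.24 on the log2 scale (SE 0.26, adjusted p 0.00428 in edgeR's quasi-likelihood F test (Benjamini-Hochberg)), and was 1 of the 4 genes called lower among all genes (0.025%), with 29 (0.181%) called higher and 33 (0.206%) in all. The members had been chosen with the high values of the day 4 EtOH library known, and this library is the whole day 4 arm in every alternative, so that the call was not checked independently of it. Its value stayed between −2.58 and −1.97 when either EtOH replicate of day 6 was left out.

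The other members were under the threshold in this fit. Fos was at −1.10 (SE 0.21, adjusted p 0.0698), Atf3 at −1.24 (SE 0.27, adjusted p 0.112) and Egr1 at −0.90 (SE 0.21, adjusted p 0.172) by edgeR with Benjamini-Hochberg adjustment. Dusp1 stood at −0.92, Jun at −0.61, Junb at −0.51, Zfp36 at −0.47 and Ier2 at −0.13. In all, 8 members had an unadjusted p under 0.05, against 5.46% of all genes, and nothing is read from this share, since the choice of members used the same library. DESeq2 called 4 members lower (Fos, Fosb, Egr1 and Atf3), and 0.126% of its 15098 genes. With no filter edgeR called 5 lower, these 4 and Dusp1, and 0.221% of 31709 genes. Leaving out EtOH replicate 2 of day 6 brought Atf3 past the threshold (−1.47, adjusted p 0.0456 by edgeR with Benjamini-Hochberg adjustment) and moved the count over all genes from 33 to 186, and leaving out EtOH replicate 1 moved it to 9.

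In the libraries labelled 4-OHT the contrast between the days was centred near 0. The median member was −0.01 on the log2 scale, with 5 members lower and 5 higher at day 6. Of the 10, 0 were called in edgeR's quasi-likelihood F test (Benjamini-Hochberg) or by DESeq2, against 0.324% of all genes, and 1 had an unadjusted p under 0.05 (6.68% of all genes). That 1 was Fosb, at −0.63 (SE 0.27, adjusted p 0.697). Fos was at −0.16 (95% interval −0.63 to 0.31), Egr1 at 0.02 (−0.45 to 0.50) and Zfp36 at 0.11 (−0.33 to 0.55). The directions of Jun, Egr1, Atf3 and Dusp1 turned when 4-OHT replicate 1 of day 6 was left out.

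**Figure D3:**
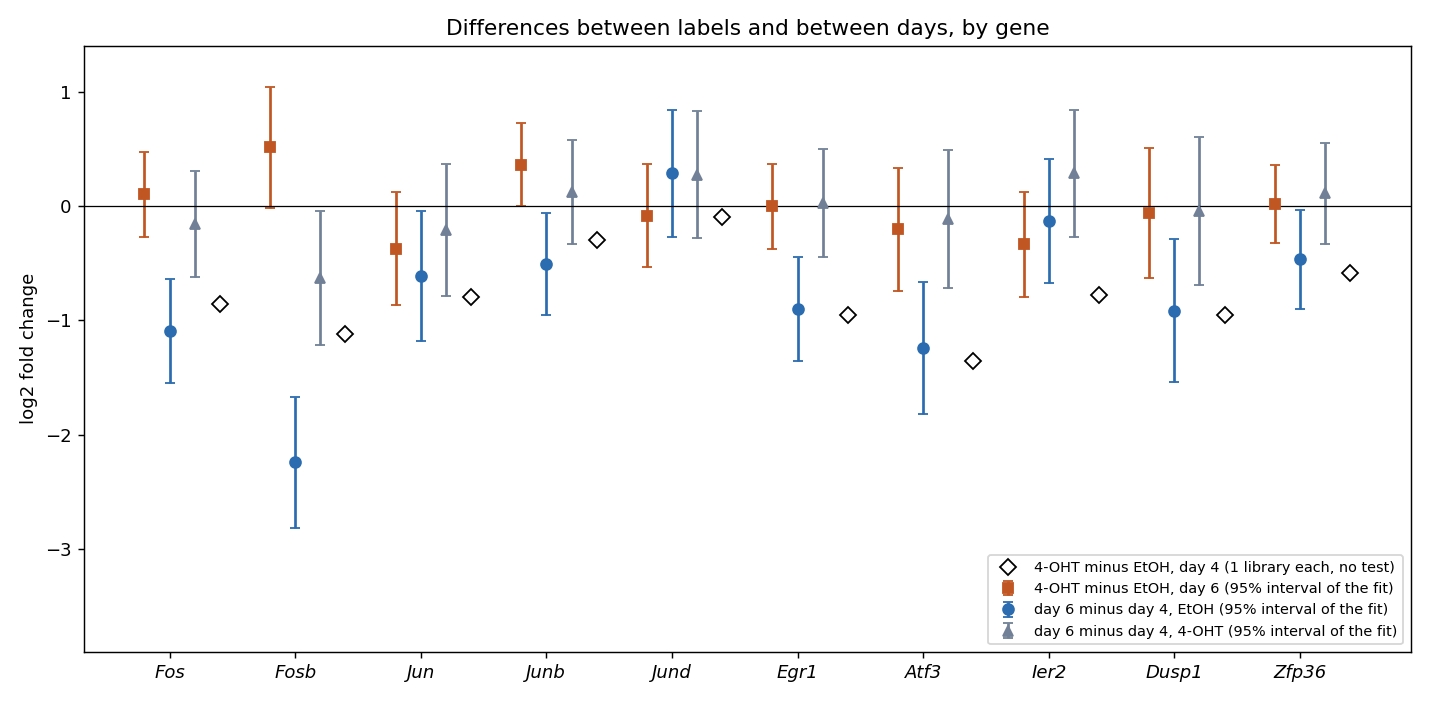
Log2 fold change of each member between labels at day 6 and between days within each label, with 95% intervals of the fits, and between labels at day 4 (open diamonds, 1 library each, no interval). The difference between days with EtOH is below 0 for 9 members and lowest for Fosb at −2.24, while the differences at day 6 and between days with 4-OHT lie between −0.63 and 0.51.

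Fitted over both days with day as a term, 3 libraries labelled 4-OHT against 3 labelled EtOH, 0 of the 10 members passed at an adjusted p of 0.05 in edgeR's quasi-likelihood F test (Benjamini-Hochberg), and DESeq2 also called 0. Among all 14060 genes, 3.98% passed. Jun (−0.51, SE 0.17), Ier2 (−0.48, SE 0.16) and Atf3 (−0.58, SE 0.25) had an unadjusted p under 0.05, as did 15.8% of all genes. Jun passed when 4-OHT replicate 2 of day 6 was left out (−0.76) and Ier2 when EtOH replicate 2 of day 6 was left out (−0.67). Fos (−0.21), Fosb (−0.02) and Zfp36 (−0.18) turned their direction when either day 4 library was left out. The day term then takes up the remaining day 4 library, so that such a fit only restates the day 6 comparison.

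The wider set of immediate early genes had no common direction at day 4. Of 40 other immediate early genes, 36 reached a mean of 1 CPM at day 4, and their median day 4 log2 fold change was 0.00, against −0.83 for the members. Egr2, a close relative of Egr1, had the lowest value, −2.19, with 40.2 CPM (EtOH) and 8.75 CPM (4-OHT) at day 4 and 8.55 to 16.4 CPM at day 6. Nr4a1, an orphan nuclear receptor induced in the same wave, was at −0.96, with 161 CPM (EtOH) and 82.7 CPM (4-OHT) at day 4 and 49.5 to 68.4 CPM at day 6. Plk2, a kinase also induced by p53, stood at 1.37, with 25.9 CPM (EtOH) and 67.0 CPM (4-OHT). In the comparison of days with EtOH, Nr4a1 was the 1 gene that passed of 38 tested from this list. It fell by 1.43 on the log2 scale (SE 0.22, adjusted p 0.0283 in edgeR's quasi-likelihood F test (Benjamini-Hochberg)), where 0.025% of all genes were called lower. The call rests on the same single day 4 EtOH library as that of Fosb. The list was also chosen with earlier results known, so the call is no independent support.

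At day 6, 2 of the 37 genes tested from this list passed, both higher in the libraries labelled 4-OHT. Of all genes, 2.15% passed in either direction. The median log2 fold change of the list was 0.19, and its direction as a whole was not tested. Klf4, a factor of differentiating epithelium, rose by 1.09 (SE 0.21, adjusted p 0.0283), from 44.0 and 61.2 CPM to 97.9 and 127 CPM. Dusp6, the phosphatase that acts on ERK, rose by 1.19 (SE 0.18, adjusted p 0.00893), from 27.3 and 29.5 CPM to 69.6 and 61.3 CPM, both by edgeR with Benjamini-Hochberg adjustment. Over both days Klf4, Dusp6 and Dusp5 (0.56, SE 0.12) passed of 38 tested, against 3.98% of all genes. Among 10 MAP kinase phosphatases, Dusp6 passed at day 6 and Dusp5 and Dusp6 over both days, while the member Dusp1 passed in neither.

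Of 21 bZIP partners of AP-1, 20 matched 1 identifier (Ddit3 did not) and 18 were tested at day 6. Maf rose at day 6 (1.85, SE 0.38, adjusted p 0.0401 by edgeR with Benjamini-Hochberg adjustment), from 4.92 and 13.1 CPM to 36.5 and 28.4 CPM. Over both days Maf and Nfe2l2 (0.51, SE 0.11), the factor of the oxidative stress response, rose, and Atf5 (−0.93, SE 0.19) fell. Of 21 genes for MAP kinase and SRF inputs, the factors upstream of immediate early genes, 0 passed at day 6 by edgeR or DESeq2, with 1 at an unadjusted p under 0.05, and 1 passed over both days, Map2k4 (0.47, SE 0.10). The median of these inputs was 0.01 at day 6 and −0.03 at day 4. Beside the calls in both lists, 2.15% of all genes passed at day 6 and 3.98% over both days.

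Heat shock genes respond to heat and unfolded protein and are often listed beside immediate early genes as signs of cell handling. Of 17, the 15 that averaged 1 CPM or more at day 4 lay between −0.16 and 0.16, with a median of −0.02. In each of the 5 tested comparisons 0 heat shock genes passed in edgeR's quasi-likelihood F test (Benjamini-Hochberg) or in DESeq2. By edgeR, 0% to 3.98% of all genes passed in these comparisons. For EtOH between days 1 had an unadjusted p under 0.05, against 5.46% of all genes. Between days the lowest of the 17 values was −6.92 with EtOH and −4.39 with 4-OHT, and 2 of the 17 genes were under 1 CPM in every library. Hspa1b was at 2.70 to 7.15 CPM. The summed level of the list ran from 7580 to 9171 CPM, with 7895 CPM in the day 4 EtOH library. The part of dissociation and sorting in the level of the 10 members was not tested.

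**Figure D4:**
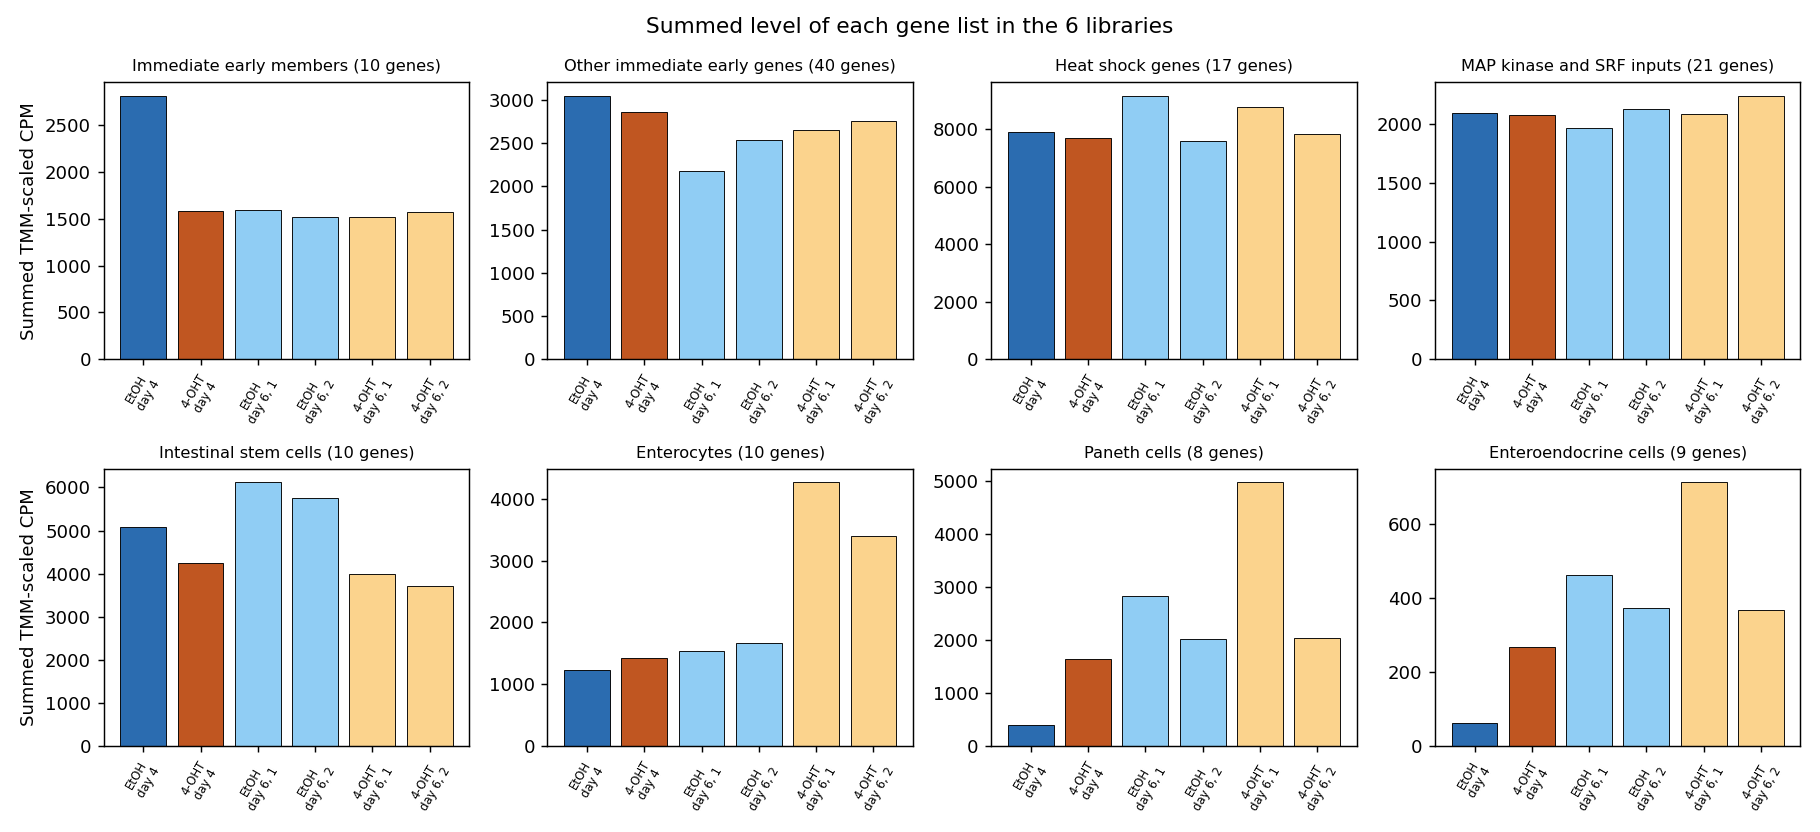
Summed TMM-scaled CPM of 8 gene lists in each of the 6 libraries, 1 bar per library. The 10 members are highest in the day 4 EtOH library at 2817 CPM. The Paneth, enteroendocrine and enterocyte sums (399, 61.5 and 1224 CPM) are lowest in that library. Heat shock genes range from 7580 to 9171 CPM.

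Cell type markers differed between the libraries alongside the members. The day 4 EtOH library, highest for most members, had the lowest summed level of 8 Paneth cell markers (399 CPM, against 1641 CPM in the day 4 library labelled 4-OHT and 2025 to 4973 CPM at day 6). It also had the lowest sum of 9 enteroendocrine markers, at 61.5 CPM against 267 CPM and 367 to 712 CPM. In the EtOH comparison of days, 5 of the 8 Paneth and 6 of the 9 enteroendocrine markers rose, by edgeR with Benjamini-Hochberg adjustment, against 0.181% of all genes. DESeq2 called 1 of the 8 and 7 of the 9. The sum of 10 enterocyte markers was 1224 CPM (EtOH) and 1417 CPM (4-OHT) at day 4, 1539 and 1669 CPM with EtOH at day 6, and 4265 and 3397 CPM in the day 6 libraries labelled 4-OHT. Stem cell markers summed to 5083 CPM in the day 4 EtOH library, within the range of 3705 to 6121 CPM of the others. The sum of 8 goblet markers was also lowest in the day 4 EtOH library, at 2053 CPM against 2423 to 3485 CPM. That of 8 tuft markers was not, at 11.2 CPM there and 7.53 CPM in the day 4 library labelled 4-OHT. The epithelial markers were high in every library (6324 to 9898 CPM), with the day 4 EtOH library the lowest. Of the immune markers 7 of 8, and of the fibroblast and endothelial markers 7 of 8, were under 1 CPM in every library. The part of these other cell types in the members' levels was not tested.

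The genes nearest to the members in pattern were ranked by distance. Among 10423 genes that are no member and averaged 5 CPM or more, the pattern nearest to that of Fos was Nr4a2, with a root mean square difference of 0.136 in centred log2 CPM over the 6 libraries, where the median gene was at 0.434 and the members Fosb and Jund lay beyond it. Shank2 (0.175), Rnf125 (0.195), Alg13 (0.196) and Hnrnph3 (0.201) came next. Nearest to the mean pattern of the 10 members were Fzd5 (0.104), Mroh2a (0.107), Arl14ep (0.117), Hnrnph3 (0.119) and Nr4a2 (0.134), where the median gene was at 0.351 and Fosb (0.596) and Jund (0.393) were again farther away. Nr4a2, a relative of Nr4a1 and itself an immediate early gene, had 21.4 CPM in the day 4 EtOH library and 12.0 to 14.4 CPM in the others. Fzd5, a Wnt receptor, had 219 CPM there and 136 to 159 CPM in the others. These distances rest on 6 libraries and mostly on the 1 that stands apart.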

How the data were processed

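The authors deposited, for each of 6 libraries, whole-number counts per gene that are not normalized, below 4 summary lines. The labels' protocols give oligo-dT selection of total RNA, fragmentation and random hexamer priming. STAR and the build mm39 are named in the submitters' processing notes. The annotation release, the strand setting and the versions are not given in the sources used here. The summary lines held 19.3% to 26.7% of all entries and stayed out of library sizes and tests. GENCODE M39 of GRCm39 gave symbols for 56323 of 56884 identifiers, which hold 99.96% of gene counts. At the depths found, 1 CPM is about 14 to 21 counts.

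Counts were fitted in R 4.3.3 with glmQLFit and glmQLFTest of edgeR 4.0.16. Scaling was TMM, low genes were removed by filterByExpr at its minimum count of 10, and p-values had Benjamini-Hochberg adjustment over all genes tested, with calls at 0.05. The day 6 fit used 4 libraries, the fit over both days all 6 with day as a term, and the fits between days all 6 in 4 groups. For day 4, log2 fold changes used a prior count of 2 and exact binomial 95% intervals of the ratio of counts, with no test. Means ± SD are over n = 2. Replicates were compared before averaging, and the chi-square per degree of freedom was 33.2 (EtOH) and 22.9 (4-OHT) at day 6, so none was a duplicate. Scripts were tested on simulated counts with 200 changed genes. There the day 6 fit recovered 46% of 2-fold and 75% of 4-fold changes, and 12.2% of its calls were false. The fit of the treatment difference between days recovered 9% and 50%, with 7.81% of its calls false. Both fits can therefore miss 2-fold changes.

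The 10 members and the 14 other gene lists were chosen with earlier results of these data known. All members were named. From pathway lists, genes with an adjusted p under 0.05 (at most 5 per list and comparison) were named, and for day 4 the 3 largest differences at a mean of at least 5 CPM, of which the text gives those of the other immediate early genes. The 5 nearest patterns used genes at a mean of at least 5 CPM. Alternatives were median-of-ratios scaling, library totals, DESeq2 1.42.0, no filter on low genes, a 1 CPM minimum in 2 libraries, voom of limma 3.58.1, a replicate block, all 6 libraries in 4 groups, no day term, a prior count of 0.5, robust estimation of the spread, and leaving out each library. Exon-level reads were not analysed here.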

Additional observations from a re-analysis of the deposited data

How the results depend on the processing

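Among the tested comparisons, 0 of the 10 members passed at day 6 under every alternative run, and Fosb was called for EtOH between days under every one, all of which keep the single day 4 EtOH library whose high values were known when the members were chosen. The members' day 6 median ran from −0.085 to 0.061 when 1 library was left out. Counts of members called were, without a filter on low counts, 1 (day 6 minus day 4 treatment difference, Fosb), 3 (both days) and 5 (EtOH between days). They were 4 for EtOH between days with DESeq2 and 2 with robust estimation of the spread, an alternative chosen after seeing the data. Leaving out 1 library gave 0 to 1 (both days) and 1 to 2 (EtOH between days). Of all genes, the day 6 count of 302 became 725 without a filter and 505 with DESeq2. The treatment difference between days went from 0 to 36 without a filter, 6 with DESeq2, 1 with robust spread and 0 to 31 with 1 library left out. Over both days 560 became 1150 without a filter, 856 with DESeq2, 333 without a day term and 305 to 637 with 1 library left out. For EtOH between days 33 became 206 without a filter, 16 with the 1 CPM filter, 83 with DESeq2 and 9 to 186 with 1 library left out. For 4-OHT between days 52 became 305, 30 and 120, and 93 to 164 with 1 library left out. In the fit over both days, leaving out a day 4 library leaves the other to the day term, so that the day 6 comparison is restated. The cause of the other shifts was not tested.

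With a replicate block, day 6 gave 816 genes and 0 members. The labels do not say that numbers pair the libraries. Deviations of same-numbered day 6 libraries correlated at 0.266, over 2 pairs only.

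At day 6, leaving out 1 library turned the direction of Dusp1 (−0.52 to 0.28), Atf3 (−0.53 to 0.058), Jund (−0.26 to 0.12), Egr1 (−0.082 to 0.070) and Zfp36 (−0.033 to 0.071), and Egr1 was 0.00430 without a filter. Jund in the day 4 to day 6 treatment difference was 0.00784 with median-of-ratios scaling, 0.0216 without a filter, 0.00787 with DESeq2, and −0.20 to 0.20 with 1 library left out. Over both days such ranges were −0.34 to 0.10 (Fos), −0.37 to 0.52 (Fosb), −0.27 to 0.020 (Zfp36) and −0.19 to 0.030 (Jund). The upper ends for Fos, Fosb and Zfp36 come from leaving out a day 4 library, which restates the day 6 comparison. The ranges were −0.45 to 0.13 for Ier2 (EtOH between days), and −0.59 to 0.10 (Jun), −0.042 to 0.096 (Egr1), −0.44 to 0.16 (Atf3) and −0.50 to 0.31 (Dusp1) for 4-OHT between days.

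Day 4 has 1 library per label, so its spread between cultures is unknown, and depth is not what limits these genes. Overlapping exons leave Jund, Jun and Junb uncertain.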

Other observations

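The genes called lower at day 6 than at day 4 with EtOH numbered 4. Beside Fosb and Nr4a1, described above, they were the long non-coding RNA genes Gm43305 and Gm56531, named here after their values were seen. Gm43305 lies on chromosome 14 at 54529898 to 54534949, minus strand, GRCm39. It had 764 CPM (EtOH) and 368 CPM (4-OHT) at day 4, 118 and 109 CPM in the day 6 EtOH libraries, and 62.5 and 71.8 CPM in those labelled 4-OHT. It was thus lower in the library labelled 4-OHT on both days, and at day 4 about as abundant as Fos in CPM. Between days with EtOH it fell by 2.74 on the log2 scale (SE 0.21, adjusted p 0.000263 in edgeR's quasi-likelihood F test, Benjamini-Hochberg). At day 6 the log2 fold change between labels was −0.76 (SE 0.16, adjusted p 0.0454 in the same test), close to the threshold of 0.05. In that comparison 2.15% of all genes passed, and 0 of the 10 immediate early genes. Gm56531, on chromosome 12 at 8649708 to 8691060, minus strand, had 70 and 19 counts at day 4 and 0, 0, 1 and 1 at day 6.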
